A study of Mus musculus with 10 samples.

Results

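The TRIM family was followed in mouse macrophages labelled as lacking or carrying Jaml, which encodes a junctional adhesion molecule-like surface protein of leukocytes. Members were all protein-coding rows of the count table whose gene name is Trim followed by a digit, 68 genes of the 56980 rows, and 2 further Trim rows of other gene types were left out. The data are RNA-seq counts from 10 libraries, 5 labelled KO and 5 labelled WT. Both groups had been exposed for 8 h to 100 ng/ml lipopolysaccharide (LPS, a bacterial product that TLR4 senses), and ATP at 5 mM followed during the last 30 min of treatment, so no library is of resting cells. The KO samples are titled JAMLMKO and carry the genotype entry JAML Knockdown, and the design text speaks of JAMLM-KO mice. The labels name neither a Cre driver nor the organ the macrophages came from, and nothing says that the libraries are separate animals, so p-values speak to the scatter among these libraries alone, some or all of which may be technical. In the count table the KO columns are headed SI and were taken as KO because no other group is left. Every direction below rests on that. Jaml does not check it, because the gene had 2 counts in KO library 4, 2 in WT library 1 and 0 in each of the other libraries.

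TRIM proteins are named for their tripartite motif, a RING finger followed by B-box zinc fingers and a coiled coil. Most act as E3 ubiquitin ligases, and the domain at the far end of the protein, often a PRY-SPRY domain, picks the target. Many TRIM genes are interferon-stimulated, and their proteins mark viral parts for destruction or tune the receptors and kinases by which macrophages sense microbes.

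RefSeq windows of 300 bases around gene starts (250 before and 50 after, build GRCm38.p6) were at hand for 53 of the 68 members and for 32 of the 42 that could be tested. They are shown for Trim30a, the gene the family was entered by, for its neighbours Trim30d and Trim30c, for the related pair Trim34a and Trim34b, and for Trim21. These genes differed widely in their response, and the windows differ in the core letters of the interferon-stimulated response element (ISRE), a DNA element found near many interferon-stimulated genes. Each is read in the direction of its gene. Capitals mark the letters GAAANNGAA or their reverse complement TTCNNTTTC. In Trim21 a pair of matches overlap and run together.
Trim30a, chr7:104465144-104465443, minus strand: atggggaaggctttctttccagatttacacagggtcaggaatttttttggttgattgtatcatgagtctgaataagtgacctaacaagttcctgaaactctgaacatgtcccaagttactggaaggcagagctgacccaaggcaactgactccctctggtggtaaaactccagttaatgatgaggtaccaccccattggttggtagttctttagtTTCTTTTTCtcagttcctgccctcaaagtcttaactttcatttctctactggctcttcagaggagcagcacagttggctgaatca
Trim30d, chr7:104507800-104508099, minus strand: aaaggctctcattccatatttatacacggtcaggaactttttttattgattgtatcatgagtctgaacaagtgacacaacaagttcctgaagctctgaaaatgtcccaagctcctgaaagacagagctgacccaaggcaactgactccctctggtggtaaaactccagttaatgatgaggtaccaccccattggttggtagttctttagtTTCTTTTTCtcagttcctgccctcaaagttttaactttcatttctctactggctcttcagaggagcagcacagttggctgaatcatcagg
Trim30c, chr7:104400729-104401028, minus strand: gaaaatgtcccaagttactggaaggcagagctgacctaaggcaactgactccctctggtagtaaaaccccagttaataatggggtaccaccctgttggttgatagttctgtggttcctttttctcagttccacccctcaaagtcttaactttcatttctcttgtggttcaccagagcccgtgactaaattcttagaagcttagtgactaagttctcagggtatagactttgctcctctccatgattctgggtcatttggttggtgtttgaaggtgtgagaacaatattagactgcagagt
Trim34a, chr7:104244207-104244506, plus strand: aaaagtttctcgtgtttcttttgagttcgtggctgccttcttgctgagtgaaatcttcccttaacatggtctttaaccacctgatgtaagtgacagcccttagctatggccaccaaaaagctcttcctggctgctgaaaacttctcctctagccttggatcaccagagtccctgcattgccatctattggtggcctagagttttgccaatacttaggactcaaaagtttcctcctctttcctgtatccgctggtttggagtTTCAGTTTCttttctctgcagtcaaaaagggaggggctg
Trim34b, chr7:104329221-104329520, plus strand: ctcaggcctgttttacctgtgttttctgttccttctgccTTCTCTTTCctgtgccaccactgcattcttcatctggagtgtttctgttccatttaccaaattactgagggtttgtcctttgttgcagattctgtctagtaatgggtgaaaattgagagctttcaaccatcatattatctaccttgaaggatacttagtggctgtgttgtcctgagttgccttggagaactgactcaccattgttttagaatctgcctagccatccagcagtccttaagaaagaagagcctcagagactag
Trim21, chr7:102565433-102565732, minus strand: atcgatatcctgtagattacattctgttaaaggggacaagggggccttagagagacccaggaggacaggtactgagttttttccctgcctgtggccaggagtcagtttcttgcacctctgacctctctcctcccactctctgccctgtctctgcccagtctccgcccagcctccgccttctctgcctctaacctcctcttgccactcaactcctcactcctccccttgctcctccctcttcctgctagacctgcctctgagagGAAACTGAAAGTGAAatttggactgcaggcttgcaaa

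The ISRE core letters, counted on both strands with overlapping matches allowed, stood in 8.56% of all 32851 windows and in the windows of 9.76% of 27025 genes. Among TRIM genes with a window they stood in 7 of 12 called lower in KO, 2 of 3 called higher, 3 of 17 not called and 0 of 21 too low to test. A gene was counted if any of its windows held the letters, and genes differ in their number of windows. Trim2 and Trim7 each have windows with and without them. Trim30a has another window, at chr7:104446076-104446375, which also holds them. Only the Trim30a window shown above was compared with those of other genes. The 7 were Trim12a, Trim12c, Trim21, Trim25, Trim30a, Trim30d and Trim34a, the higher genes were Trim2 and Trim7, and those not called were Trim5, Trim26 and Trim34b. All but Trim21 and Trim25 of the 7 lie in a chromosome 7 run of related genes described below, so their matches are not separate cases. Trim5, of the same run and not called, has the same match TTCTGTTTC as Trim12a and Trim12c. Counted from the gene start, the letters began at base 12 in Trim34a, whereas in Trim34b they lay at -211, far before the start. Trim30c and Trim30b, the genes with the largest decreases described below, had no ISRE match in their windows. Trim30c has ttcctttttctcag where Trim30a has ttctttttctcag, and the added c breaks the match. The windows of Trim30a and Trim30d were identical at 277 of 305 aligned columns (90.8%). For Trim30a and Trim30c it was 180 of 401 (44.9%), and for Trim34a and Trim34b 179 of 342 (52.3%). For Trim12a and Trim12c it was 248 of 340 (72.9%), and for Trim12c and Trim5 265 of 320 (82.8%). Columns with gaps are counted, so a low share does not tell a shifted window from a diverged one. Trim30a and Trim30c share the stretch ctcaaagtcttaactttcatttctct, which lies earlier in the Trim30c window. The NF-kB letters GGGANTTCC stood in 0 members' windows and in 1.92% of all genes. The letters TTCNNNGAA of the interferon gamma-activated site (GAS) were also searched and stood in the windows of 9.55% of all genes. Among members they stood in 1 of 12 called lower, which was Trim30c, and in 0 of 3 called higher. They also stood in 2 of 17 not called and 3 of 21 too low to test. A match describes letters and is not a bound site, and a missing match says only that the letters are not in this window.

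Of the 68 members, 42 had enough counts to be tested. In the edgeR quasi-likelihood test, with Benjamini-Hochberg adjustment over 14436 genes, 14 were lower in KO, 4 were higher and 24 were not called at an adjusted p under 0.05. Of all genes tested, 29.1% were called, 15.0% lower and 14.1% higher. Lower members thus made up 33.3% of those tested and higher members 9.52%. The median log2 fold change, KO over WT, was -0.12 over the 42 members and 0.01 over all genes. Scaling by library totals in place of trimmed means (TMM), which moved the median of all genes to 0.12, called 11 members lower and 7 higher. That scaling called more than 29.1% of all genes, and its split into lower and higher is not given here. In 13 members every KO library lay below every WT library, and in 4 every KO library lay above; over all genes the shares were 12.4% and 10.9%. Reads assigned to TRIM members made up 0.175 to 0.201% of each KO library and 0.235 to 0.243% of each WT library.

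**Figure D1:**
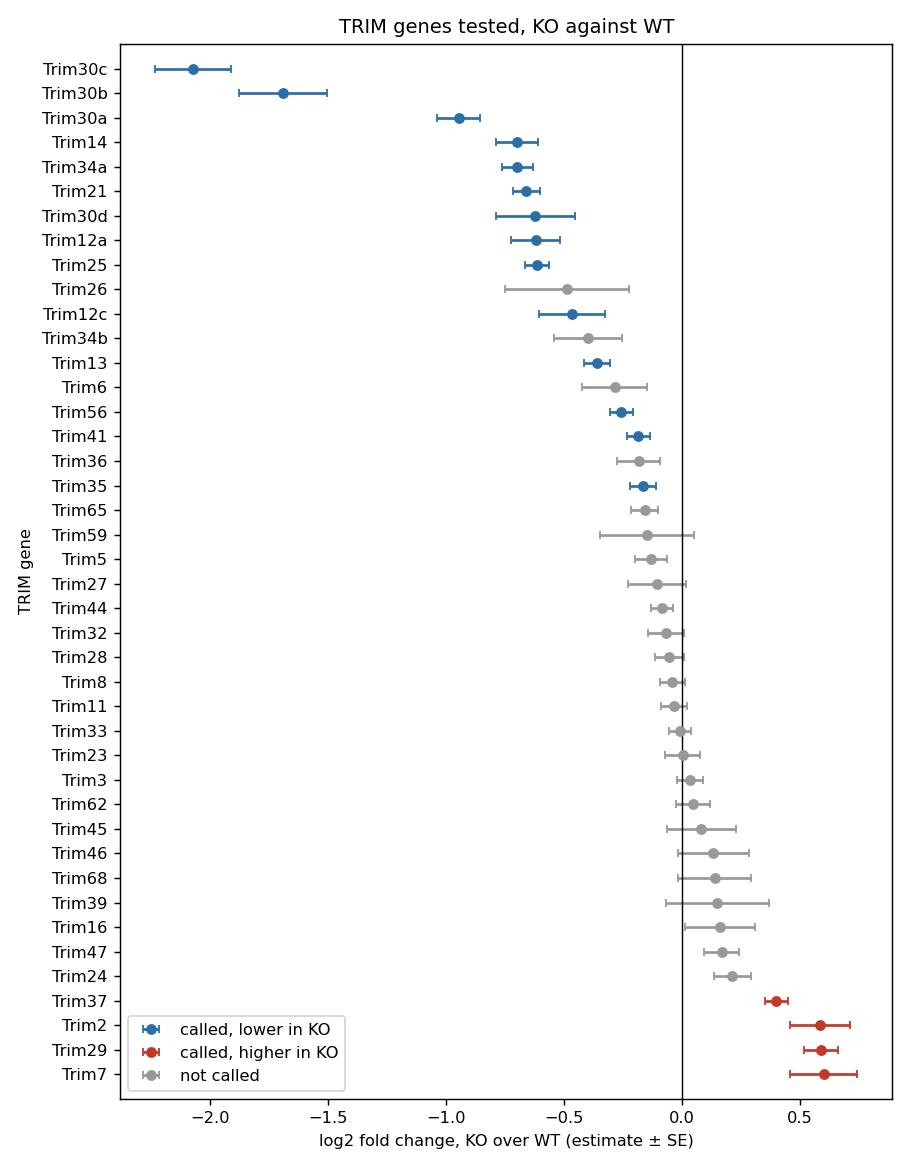
Log2 fold change, KO over WT, of the 42 TRIM genes tested, ordered from the lowest at the top; points are edgeR estimates from 5 KO and 5 WT libraries, bars are SE, and colour shows the call at an adjusted p under 0.05. Trim30c and Trim30b lie farthest left at -2.07 and -1.69, and Trim37, Trim2, Trim29 and Trim7 lie on the right, between 0.40 and 0.60.

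Trim30c, Trim30b and Trim30a had the largest changes of the tested members. Trim30a is a mouse PRY-SPRY ligase known to be induced by TLR ligands and to limit NF-kB signalling by driving loss of the TAK1 adaptors TAB2 and TAB3. It had 264, 255, 218, 267 and 190.2 CPM (counts scaled to library depth, with TMM factors) in KO libraries 1 to 5, against 472, 459, 418, 456 and 496 CPM in WT libraries 1 to 5. No KO library reached the lowest WT library, and KO library 5 was the lowest of all. The log2 fold change was -0.95 ± 0.09 (SE; edgeR adjusted p = 1.08e-05), a 1.93-fold lower level in KO. Per length, Trim30a averaged 55.3 ± 7.89 FPKM (fragments per kilobase of gene and per unit of sequencing depth) in KO and 98.3 ± 5.97 FPKM in WT (SD, n = 5 each), and over all libraries it ranked behind Trim25 alone within the family.

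Trim30c, its neighbour in the cluster, had 10.8, 11.8, 8.95, 11.5 and 5.70 CPM in KO, against 36.4, 40.3, 39.3, 44.2 and 45.0 CPM in WT. The groups lay far apart, and KO library 5 was again the lowest. The log2 fold change was -2.07 ± 0.16 (edgeR adjusted p = 2.33e-06), a 4.20-fold lower level in KO. Trim30b had 3.59, 3.54, 2.73, 3.24 and 1.56 CPM in KO, against 8.05, 9.26, 9.29, 9.42 and 11.5 CPM in WT. These groups did not overlap either, with a log2 fold change of -1.69 ± 0.19 (edgeR adjusted p = 3.55e-05). Trim30b and Trim30c were the members past a 2-fold change.

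Trim30d had 66.3, 72.8, 46.2, 71.0 and 41.2 CPM in KO, against 117, 84.8, 78.5, 83.6 and 94.1 CPM in WT. KO libraries 3 and 5 were well below the other KO libraries, WT library 1 stood above the other WT libraries, and the groups did not overlap. The log2 fold change was -0.62 ± 0.17 (edgeR adjusted p = 0.0151). It was -0.57 without KO libraries 1 and 3, which stood apart from the others on the second principal component, with an adjusted p of 0.0512. Trim30d shares 6.4% of its 50-base words with Trim30a transcripts, and the pseudogene Gm16464 lies over 1095 of its bases, so some reads could have been assigned to the wrong gene. Trim30c and Trim30b share 0.7% and 1.5% of their words with any other gene.

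The 4 Trim30 genes did not fall in step. Within each library the log2 ratio of Trim30c to Trim30a averaged -4.65 ± 0.24 in KO and -3.49 ± 0.13 in WT (SD, n = 5 each), a difference of -1.16 with no overlap (two-sided exact permutation p = 0.00794, which is the least that 5 against 5 can give; adjusted over 5 pairs of related genes, 0.0198). For Trim30b over Trim30a the difference was -0.79, also without overlap (exact p = 0.00794, adjusted 0.0198). For Trim30d over Trim30a it was 0.31, with overlapping groups (exact p = 0.0397, adjusted 0.0496). The adjusted p rose above 0.05 when any of KO libraries 1, 2 and 4 or WT libraries 2 to 5 was left out, with a highest value of 0.119. The 5 pairs were chosen after the values were seen.

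**Figure D2:**
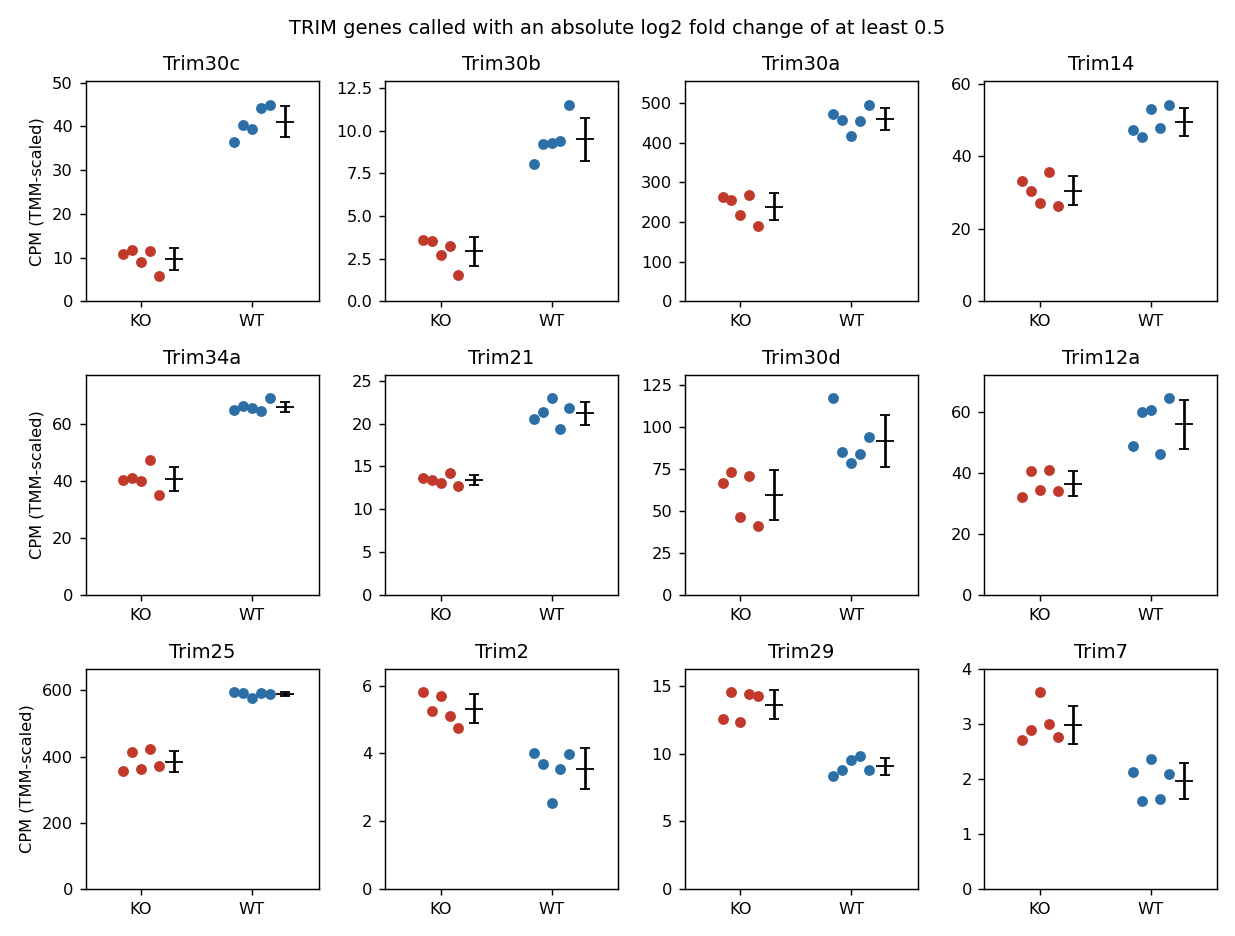
TMM-scaled CPM in each of 5 KO (left, red) and 5 WT (right, blue) libraries for the 12 TRIM genes called with an absolute log2 fold change of at least 0.5; each point is a library and the bar is the mean ± SD. KO and WT points are separate in all 12 panels, with 9 genes lower and 3 higher in KO, and KO library 5 is the lowest of its group for Trim30a, Trim30b, Trim30c and Trim30d.

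Trim30a to Trim30d end a run of 10 Trim genes on chromosome 7 that begins with Trim6, between 103868000 and 104157056 as the count table lists positions, a stretch of 289 kb. All 10 were tested, their estimates were all below 0, also with library totals, and 7 were called lower, with a median log2 fold change of -0.62. The 32 tested members elsewhere in the genome had 7 lower, 4 higher and a median of -0.04. Lower genes were thus 70% of the run and 21.9% of the members elsewhere, against 15.0% of all genes tested. Of the other genes in the run, the long noncoding Gm15133 (-1.40 ± 0.35, edgeR adjusted p = 0.00954) and the pseudogene Gm16464 (-0.69 ± 0.09, adjusted p = 0.00016) were also lower. Gm15133 overlaps Trim12a, and Gm16464 overlaps Trim30d.

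**Figure D3:**
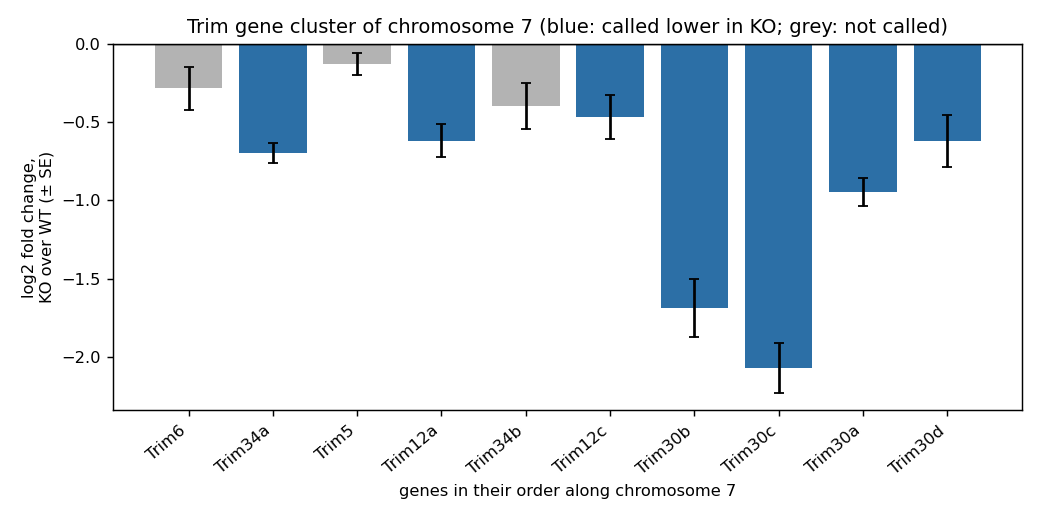
Log2 fold change, KO over WT, with SE for the 10 Trim genes of the chromosome 7 run in their order along the chromosome, from 5 KO and 5 WT libraries; blue bars are called lower in KO and grey bars are not called. All bars point down, and the longest are the adjacent Trim30b at -1.69 and Trim30c at -2.07.

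The remaining genes of the run are Trim6, the Trim34 pair, and Trim5 and the Trim12 genes, mouse relatives of human TRIM5, which blocks incoming retroviral capsids. Trim34a had 40.3, 41.1, 40.1, 47.2 and 35.1 CPM in KO, against 64.7, 66.4, 65.7, 64.6 and 68.9 CPM in WT. The groups were clearly separate and the WT values lay close together. On the log2 scale it fell by 0.70 ± 0.07 (edgeR adjusted p = 1.01e-05). Its near copy Trim34b averaged 1.94 ± 0.32 CPM in KO and 2.56 ± 0.30 CPM in WT (SD, n = 5 each), with overlapping groups, and was not called (-0.40 ± 0.15, edgeR adjusted p = 0.0618). It was called when KO library 1 or WT library 4 was left out, with adjusted p of 0.0475 and 0.048. Trim34a shares 39.8% of its 50-base words with Trim34b, and Trim34b shares 56.8% of its words with Trim34a. Reads of this pair may thus have been split between them, and the low counts of Trim34b are the more open to this. The log2 ratio of Trim34b to Trim34a averaged -4.40 ± 0.17 in KO and -4.70 ± 0.17 in WT (SD, n = 5 each), a difference of 0.30 with overlapping groups (exact permutation p = 0.0238, adjusted over the 5 pairs 0.0397). The adjusted p was 0.0661 to 0.0794 when KO library 1, 2 or 4 or WT library 2, 4 or 5 was left out.

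Trim12a had 32.3, 40.6, 34.5, 41.1 and 34.2 CPM in KO, against 48.9, 60.0, 60.9, 46.2 and 64.5 CPM in WT. Every KO library was below every WT library, though WT libraries 1 and 4 lay near the KO range. Trim12a fell by 0.62 ± 0.10 on the log2 scale (edgeR adjusted p = 0.000859). Trim12c had 49.2, 46.0, 39.4, 46.5 and 41.5 CPM in KO, against 55.1, 55.1, 51.5, 56.5 and 89.0 CPM in WT. WT library 5 alone was far above the rest, and the lowest WT library was close to the highest KO library. Its log2 fold change was -0.47 ± 0.14 (edgeR adjusted p = 0.0254), and the adjusted p rose to 0.057 without KO library 3, to 0.057 without KO library 5 and to 0.0695 without KO libraries 1 and 3. Without WT library 5 the estimate was -0.28, and the gene was still called. The log2 ratio of Trim12c to Trim12a did not pass the test, with a difference between KO and WT of 0.17 (exact permutation p = 0.254, adjusted over the 5 pairs 0.254). Trim5 shares 23.5% of its words with Trim12c. Trim5 averaged 16.5 ± 1.249 CPM in KO and 18.1 ± 1.27 CPM in WT and was not called (-0.13 ± 0.07, edgeR adjusted p = 0.196). Trim6, known in human cells to make free ubiquitin chains that activate the kinase IKK-epsilon, averaged 4.33 ± 0.72 CPM in KO and 5.28 ± 0.82 CPM in WT (SD, n = 5 each). It was not called (-0.28 ± 0.14, edgeR adjusted p = 0.154) but was without KO library 1 (adjusted p = 0.0481).

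Outside the run, lower members included ligases and adaptors of antiviral sensing. Trim25, which attaches lysine 63-linked ubiquitin chains in RIG-I signalling, was the family's most abundant member per length at 83.0 FPKM over all libraries. It had 355, 413, 363.5, 423 and 371 CPM in KO, against 595, 593, 576.5, 592 and 590 CPM in WT. The WT values lay within a narrow band, and every KO value was well below it. Trim25 changed by a log2 fold of -0.61 ± 0.05 (edgeR adjusted p = 3.47e-06), a 1.53-fold lower level in KO.

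Trim21, the cytosolic Fc receptor that directs antibody-coated viruses to the proteasome, had 13.6, 13.4, 13.1, 14.3 and 12.7 CPM in KO, against 20.5, 21.4, 22.9, 19.4 and 21.8 CPM in WT. The groups did not overlap and the KO libraries were close to each other. Expression fell by 0.66 ± 0.06 on the log2 scale (edgeR adjusted p = 5.76e-06). Trim21 also lies on chromosome 7, outside the run.

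Trim14, which has no RING finger and serves as an adaptor of the mitochondrial antiviral protein MAVS, had 33.0, 30.4, 27.0, 35.7 and 26.4 CPM in KO, against 47.3, 45.2, 53.0, 47.8 and 54.2 CPM in WT. Again no KO library reached the WT range. Trim14 fell by 0.70 ± 0.09 on the log2 scale (edgeR adjusted p = 9.55e-05). Trim14 overlaps Nans, the sialic acid synthase, over 9852 bases and shares 29.5% of its words with it. Nans was higher in KO (0.43 ± 0.05, edgeR adjusted p = 2.46e-05).

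Smaller decreases were seen in 4 further ligases. Trim13, anchored in the endoplasmic reticulum, averaged 13.4 ± 0.79 CPM in KO and 17.1 ± 0.55 CPM in WT, with no overlap (log2 fold change -0.36 ± 0.05, edgeR adjusted p = 0.000407). It overlaps the long noncoding Dleu2, which was also lower (-0.97 ± 0.29, edgeR adjusted p = 0.0259), with overlapping groups. Trim56, linked to STING and to TLR3 signalling through TRIF, averaged 88.1 ± 6.53 CPM in KO and 105 ± 1.79 CPM in WT, also without overlap (-0.25 ± 0.05, edgeR adjusted p = 0.00248), and with library totals its estimate was -0.14 (adjusted p = 0.0172). Trim41, which in human cells targets the nucleoprotein of influenza A virus, averaged 49.5 ± 3.51 CPM in KO and 56.2 ± 1.31 CPM in WT (-0.18 ± 0.05, edgeR adjusted p = 0.0166). The Trim41 groups did not overlap, but it was not called without KO libraries 1 and 3 (adjusted p = 0.0734) or with library totals (-0.07, adjusted p = 0.272). Trim35 had 135, 135, 134, 145 and 119 CPM in KO, against 137, 155, 157, 148 and 152 CPM in WT. The groups overlapped, through KO library 4 and WT library 1. Its change of -0.16 ± 0.05 (edgeR adjusted p = 0.0414) was not called when any of KO libraries 1, 2, 3 and 5 or WT libraries 2 to 5 was left out, with adjusted p of 0.0579 to 0.113. With library totals it was -0.05 (adjusted p = 0.532).

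Higher in KO were 4 members. Trim29, a RING-less member that in mouse alveolar macrophages is known to promote degradation of NEMO, had 12.6, 14.5, 12.3, 14.4 and 14.3 CPM in KO, against 8.34, 8.78, 9.49, 9.83 and 8.81 CPM in WT. All KO libraries were above all WT libraries. Trim29 lies on chromosome 9, as Jaml does, and whether its place there bears on the difference was not tested. The log2 fold change of Trim29 was 0.59 ± 0.07 (edgeR adjusted p = 8.27e-05), a 1.51-fold higher level in KO.

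Trim37, a MATH-domain ligase of peroxisome import and centrosome control, averaged 33.7 ± 0.40 CPM in KO and 25.5 ± 1.501 CPM in WT (SD, n = 5 each). Its KO libraries had the smallest relative spread of any tested member, a coefficient of variation of 1.19%, and none overlapped WT. The log2 fold change was 0.40 ± 0.05 (edgeR adjusted p = 5.39e-05). Trim2, an NHL-repeat ligase of the light neurofilament in neurons, had 5.81, 5.26, 5.68, 5.11 and 4.74 CPM in KO, against 4.00, 3.69, 2.53, 3.53 and 3.98 CPM in WT. All KO values were higher, with WT library 3 the lowest (0.58 ± 0.13, edgeR adjusted p = 0.00439).

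Trim7, which binds glycogenin, the protein that starts glycogen chains, had 2.72, 2.89, 3.58, 3.00 and 2.77 CPM in KO, against 2.12, 1.61, 2.37, 1.64 and 2.09 CPM in WT. The KO libraries were all higher (0.60 ± 0.14, edgeR adjusted p = 0.00735). Trim7 overlaps Gm12184 over 516 bases and had 516 counts in all against 7135 for Gm12184, which was itself higher in KO (0.35 ± 0.06, adjusted p = 0.000626). Without a stated strand setting the reads of this pair cannot be told apart. Per length Trim2 and Trim7 were among the lowest tested members, at 0.103 and 0.183 FPKM over all libraries.

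The 24 tested members that were not called include the other abundant ones. Trim8, which promotes TNF and IL-1 signalling by acting on TAK1, had 113, 119.9, 111, 116 and 103 CPM in KO, against 113, 112, 128, 115 and 111 CPM in WT. The groups overlapped throughout (-0.04 ± 0.05, edgeR adjusted p = 0.627). Trim44, a RING-less member, had 78.5, 91.55, 84.2, 91.4 and 86.4 CPM in KO, against 94.2, 94.2, 90.0, 90.5 and 88.7 CPM in WT. KO library 1 was the lowest, and the ranges overlapped (-0.08 ± 0.05, edgeR adjusted p = 0.219). Both estimates turned positive with library totals, at 0.08 and 0.03, without being called.

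The 3 PHD and bromodomain members tested, known for their action on chromatin, were not called, and the fourth of the class, Trim66, was too low to test. Trim28, the corepressor KAP1 of KRAB zinc finger proteins, averaged 105 ± 8.66 CPM in KO and 109 ± 6.46 CPM in WT (SD, n = 5 each). Trim33 averaged 37.3 ± 1.67 CPM in KO and 37.5 ± 1.55 CPM in WT, with a log2 fold change of -0.01 ± 0.05. Trim24, a coactivator of nuclear receptors in this trio, averaged 8.96 ± 0.49 CPM in KO and 7.72 ± 0.70 CPM in WT, with overlap and an edgeR adjusted p of 0.0573. It was called when KO library 1, WT library 1 or WT library 2 was left out, with adjusted p of 0.0366, 0.0462 and 0.0278. Of the other NHL-repeat members, Trim3 (0.04 ± 0.06) and Trim32 (-0.07 ± 0.08) were not called, nor were the COS-box members tested, Trim36 (-0.18 ± 0.09) and Trim46 (0.13 ± 0.15). Trim23, which has an ARF-like domain, was at 0.00 ± 0.07. By domain, 11 of 23 tested PRY-SPRY members were lower and 1 was higher, or 47.8% and 4.35%. Over all genes tested these shares were 15.0% and 14.1%. All 10 genes of the chromosome 7 run, 7 of them lower, are in this class and in that count. Trim65, a ligase of the RNA sensor MDA5, narrowly missed the call (-0.16 ± 0.06, edgeR adjusted p = 0.0561). It passed when KO library 2, KO library 4 or WT library 5 was left out (0.0486, 0.0445 and 0.0449). Trim47, which shares 5365 bases with Trim65, had an estimate above 0 and was not called (0.17 ± 0.08, adjusted p = 0.118). The other members not called, with estimates from -0.15 to 0.16, were Trim11, Trim16, Trim45, Trim59, Trim62 and Trim68, as well as Trim27 and Trim39.

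Spread between libraries of the same genotype differed among members, around a median coefficient of variation of 8.59% in KO and 7.67% in WT. It was largest over both genotypes in Trim26, Trim39 and Trim59 (23.7% in KO and 24.3% in WT for Trim59). In KO alone it was also wide in Trim30b (28.6%), Trim30c (25.8%) and Trim30d (24.8%), and in WT alone in Trim12c (25.2%) and Trim68 (24.9%). Trim26, a ligase reported to act on IRF3 and TAB1, had 20.5, 41.7, 51.5, 40.01 and 43.6 CPM in KO, against 31.7, 50.4, 73.9, 46.5 and 73.8 CPM in WT. Library 1 was the lowest and library 3 the highest in each genotype, and the groups overlapped. Its coefficient of variation was 29.1% in KO and 33.2% in WT, and the change of -0.49 ± 0.26 was not called (edgeR adjusted p = 0.196). Trim39 had 7.70, 12.7, 14.6, 15.7 and 10.7 CPM in KO, against 12.8, 14.3, 7.27, 8.50 and 12.4 CPM in WT. The ranges covered each other almost fully (0.15 ± 0.22, edgeR adjusted p = 0.657). Trim27, reported to restrain NF-kB and IRF signalling, had 33.8, 33.1, 34.5, 23.0 and 32.7 CPM in KO, against 35.6, 33.2, 37.6, 25.8 and 36.8 CPM in WT. Its coefficient of variation was 15.2% in KO and 14.2% in WT, and library 4 was the lowest in each genotype (-0.11 ± 0.12, edgeR adjusted p = 0.582). The library numbers did not pair KO with WT over all genes, with same-number correlations of -0.09 to 0.11.

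**Figure D4:**
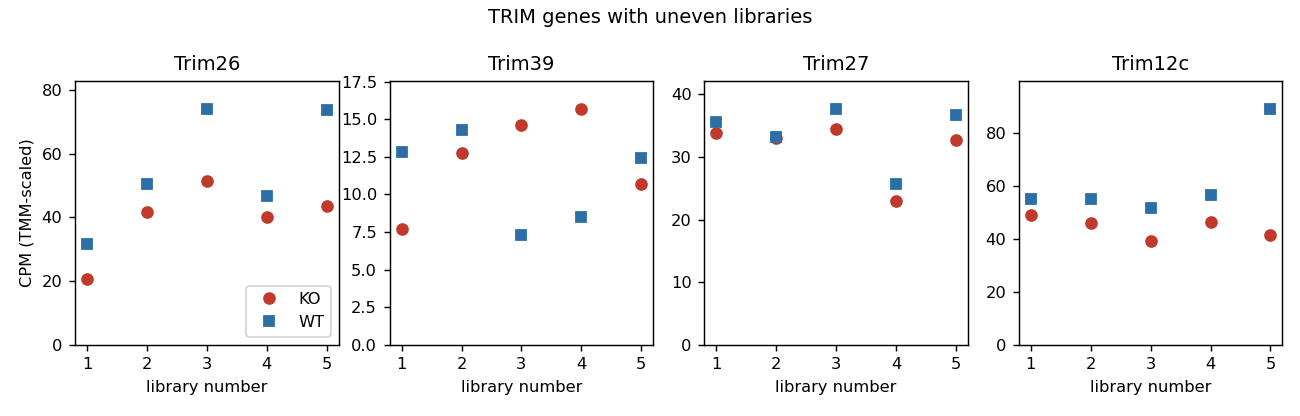
TMM-scaled CPM of Trim26, Trim39, Trim27 and Trim12c in each numbered library, KO as red circles and WT as blue squares; numbers name libraries and carry no order. Trim26 is lowest in library 1 and Trim27 in library 4 of each genotype, and for Trim12c WT library 5 at 89.0 CPM stands above every other library.

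The other 26 members were too low to test. Of these, 13 had 0 counts in every library: Trim10, Trim15, Trim40, Trim42, Trim43a, Trim43c, Trim50, Trim52, Trim58, Trim60, Trim61, Trim75 and Trim80. A count of 0 allows up to 3 counts, or 0.132 to 0.155 CPM, for counting error only. Another 6 had counts but none above 3 in a library, namely Trim31, Trim38, Trim43b, Trim63, Trim67 and Trim72. The last 7, Trim9, Trim17, Trim54, Trim55, Trim66, Trim69 and Trim71, reached at most 16 counts. Trim54, Trim55 and Trim63 encode ligases of striated muscle, known as MuRF proteins, and Trim72 encodes the membrane repair protein of muscle. Trim55 had 6, 0, 14, 0 and 0 counts in KO, against 7, 16, 3, 5 and 0 counts in WT. Its counts were uneven in each genotype and no difference was tested.

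The family also has members under other names, of which 5 of 8 were tested and 4 were lower in KO. That is 80% of those tested, where 15.0% of all genes were lower. Rnf135, the ligase Riplet that acts on RIG-I, averaged 15.8 ± 1.11 CPM in KO and 27.9 ± 1.37 CPM in WT (-0.82 ± 0.06, edgeR adjusted p = 1.54e-06). Mefv, which encodes the inflammasome sensor pyrin, averaged 30.4 ± 2.21 CPM in KO and 52.0 ± 2.44 CPM in WT (-0.77 ± 0.06, edgeR adjusted p = 1.6e-06). Mid1, a microtubule-bound ligase, averaged 3.49 ± 0.21 CPM in KO and 5.72 ± 0.71 CPM in WT (-0.71 ± 0.10, edgeR adjusted p = 0.000284). Pml, the scaffold of nuclear bodies, averaged 41.8 ± 9.29 CPM in KO and 61.3 ± 13.4 CPM in WT, with wide spread in each group (-0.55 ± 0.17, edgeR adjusted p = 0.0268). Its adjusted p passed 0.05 when KO library 1, 2 or 3, or WT library 4 or 5, was left out (0.0561 to 0.0628), and was 0.135 without KO libraries 1 and 3. Mid2 was not called (-0.35 ± 0.60, adjusted p = 0.72), and Rnf207, Bspry and Cmya5 were too low to test.

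Among 27 sensing-pathway proteins that TRIM ligases act on, all tested, 15 were lower, 0 were higher and 12 were not called, with a median log2 fold change of -0.26. Over all genes tested 15.0% were lower, against 55.6% of this list. The smallest p-values were those of Nod2, the cytosolic receptor of muramyl dipeptide (-0.79 ± 0.05), Tlr3, the endosomal receptor of double-stranded RNA (-1.62 ± 0.11), Ifih1, which encodes MDA5 (-1.06 ± 0.07), and Myd88, the TLR adaptor (-0.57 ± 0.04). For Nod2 the edgeR adjusted p was 3.79e-07, for Tlr3 and Ifih1 it was 1.05e-06, and for Myd88 it was 2.21e-06. Known targets of the members above were looked at by name, outside the rule for this list. Ddx58, which encodes RIG-I, averaged 221 ± 32.2 CPM in KO and 426 ± 28.2 CPM in WT (-0.95 ± 0.09, edgeR adjusted p = 1.51e-05). Of the Trim30a targets, Tab2 averaged 88.0 ± 2.29 CPM in KO and 110 ± 16.7 CPM in WT (-0.32 ± 0.09, edgeR adjusted p = 0.0227). Its groups overlapped, as WT library 5 at 80.45 CPM lay below every KO library. Tab3 was not called (-0.14 ± 0.08, adjusted p = 0.252). Mavs was not called (-0.01 ± 0.05, adjusted p = 0.89).

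Of 21 ubiquitin-conjugating enzymes and chain-handling proteins, 9 were lower, 0 were higher and 12 were not called, with a median of -0.21. Library totals called 3 of them higher, in a run that also called more of all genes than TMM did. Over all genes tested the lower share was 15.0%, against 42.9% in this list. The smallest p-values were those of Usp18, the ISG15 protease (-1.47 ± 0.12), Uba7, the E1 enzyme of ISG15 (-1.10 ± 0.10), Ube2l6, its E2 enzyme (-0.53 ± 0.07), and Otud5, a deubiquitinase of TRAF3 (-0.38 ± 0.05). Their edgeR adjusted p-values ranged between 3.5e-06 and 0.000126. The E2 enzymes that many RING ligases use, Ube2d1 (-0.06 ± 0.08), Ube2d2a (-0.26 ± 0.25), Ube2d3 (-0.25 ± 0.14) and Ube2n (0.10 ± 0.07), were not called.

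Interferon-stimulated genes outside the family were lower almost throughout, at 96.7% of the list against 15.0% of all genes tested. Of 30, all tested, 29 were lower and 0 higher, with a median log2 fold change of -1.14, and Oasl2 was not called (-0.10 ± 0.20, edgeR adjusted p = 0.748). Rsad2, the antiviral enzyme viperin, averaged 352 ± 62.1 CPM in KO and 1564 ± 91.0 CPM in WT (-2.15 ± 0.11, edgeR adjusted p = 1.78e-07). Samhd1 (-1.15 ± 0.07), Cmpk2 (-2.34 ± 0.15) and Stat2 (-1.09 ± 0.08) followed by p. The mean log2 CPM of the 30 genes was 7.33, 7.35, 7.09, 7.36 and 6.75 in KO libraries 1 to 5, against 8.43, 8.40, 8.45, 8.42 and 8.53 in WT libraries 1 to 5. KO library 5 was the lowest here too, as it was for the 4 Trim30 genes. The decreases of Trim30c and Trim30b lay beyond the list's median and those of the other lower members short of it. Ifih1, Irf7 and Usp18 stand on more than 1 of these lists, and all lists were drawn up with earlier results of these data known.

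**Figure D5:**
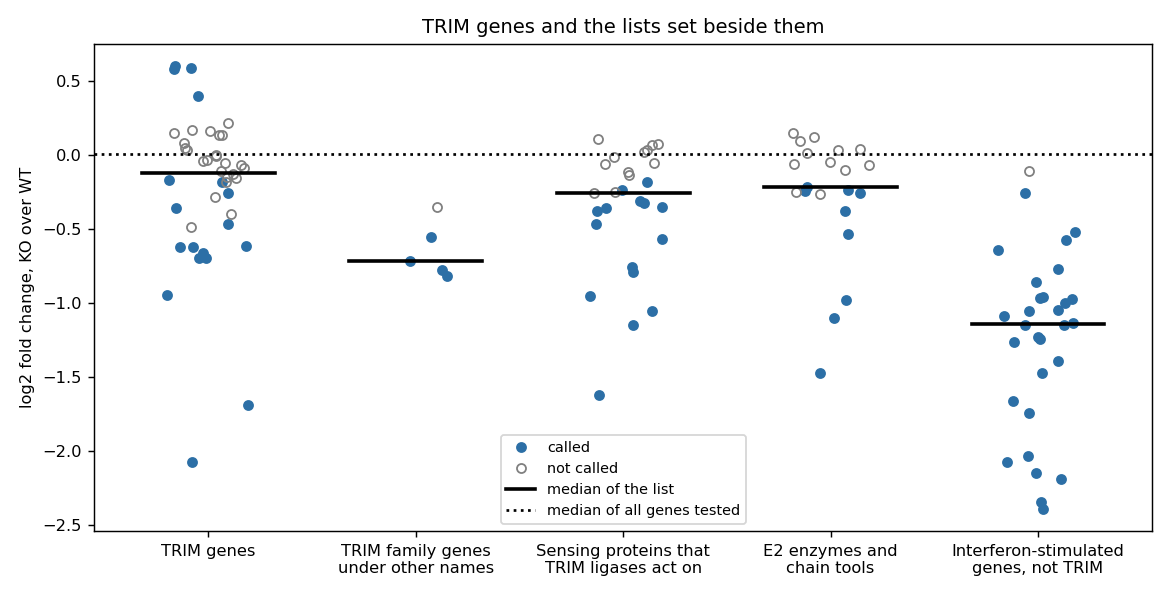
Log2 fold change, KO over WT, of each tested gene in the TRIM family and in 4 lists set beside it, from 5 KO and 5 WT libraries; filled points are called, open points are not, thick lines are list medians and the dotted line is the median of all genes tested, 0.01. The medians are -0.12 for TRIM genes, -0.71 for family members under other names, -0.26 for sensing proteins, -0.21 for ubiquitin tools and -1.14 for interferon-stimulated genes, and the genes called higher are all TRIM genes.

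All 10 macrophage markers were tested, and their summed level was 24890 to 26010 CPM in KO and 23470 to 24430 CPM in WT. Marker sums here are scaled by library totals, which places KO higher relative to WT than TMM does. TMM factors were 1.02 to 1.07 in KO and 0.948 to 0.969 in WT. With TMM the most abundant marker, Lyz2, averaged 17530 CPM in KO and 18210 CPM in WT. Lyz2 (-0.06 ± 0.04) and Cd68 (0.08 ± 0.04), the next most abundant, were not called. Of the 10, 3 were lower and 3 higher, where 15.0% of all genes tested were lower and 14.1% higher. In bulk RNA, fewer cells of a type and less RNA per cell cannot be told apart. T, B and NK cell markers were all too low to test, with a summed level of 0.344 to 0.805 CPM in KO and 0.188 to 0.673 CPM in WT, and Cd3e and Ncr1 at 0. Mast cell markers summed to 8.41 to 11.1 CPM in KO and 15.7 to 22.5 CPM in WT, with 4 of 5 tested lower, among them Hdc (-1.07 ± 0.11) and Tpsb2 (-1.05 ± 0.18). Neutrophil markers summed to 23.5 to 27.7 CPM in KO and 14.1 to 18.0 CPM in WT. Both tested, S100a8 (0.56 ± 0.07) and Camp (0.53 ± 0.14), were higher. S100a8 carried most of this sum, with a TMM-scaled mean of 21.5 CPM in KO and 14.6 CPM in WT. Ly6g, S100a9, Retnlg, Ltf, Mpo and Elane had 1 to 20 counts each over all libraries and were too low to test. Mesothelial and fibroblast markers summed to 612 to 818 CPM in KO and 545 to 615 CPM in WT, with 2 of 9 tested lower and 3 higher. The collagens that carry most of this sum, Col1a1 (0.37 ± 0.05) and Col1a2 (0.32 ± 0.06), were higher, whereas the mesothelial marker Upk3b (-2.69 ± 0.26, edgeR adjusted p = 1.32e-05) and the fibroblast marker Pdgfra (-1.01 ± 0.08, adjusted p = 3.45e-06) were lower. Msln, the mesothelial marker mesothelin, had 8.99, 1.08, 11.4, 0.442 and 0.302 CPM in KO, against 8.29, 9.74, 5.25, 7.48 and 5.03 CPM in WT, and was not called (-0.68 ± 0.74, edgeR adjusted p = 0.548). Its KO values were high in libraries 1 and 3 and low in the other KO libraries. Muscle markers summed to 6.92 to 25.5 CPM in KO and 8.67 to 18.6 CPM in WT, and Des carried most of this sum. Neither tested gene, Des or Tnnt2, was called, and Myh1, Myh2 and Myh4 were at 0. The part of these cells in the TRIM results was not tested.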

How the data were processed

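Total RNA of mouse macrophages was sequenced in 10 libraries, 5 KO and 5 WT. The submitters' processing notes list CASAVA 1.8, TopHat2 2.0.6 and the builds mm10 and GRCm39, with no roles. Counter, annotation and strand setting: not given in the sources used here. The authors deposited whole-number counts for each gene in each library, as the file headers name them, and FPKM values beside them. In the WT columns of 8180 genes the deposited FPKM equalled the count over a gene length and the library total, to within a relative spread of 3.06e-06; KO levels per length were computed from counts with that same length. The 5 FPKM columns headed SI were not used. Positions are as the table lists them, since 1 of 68 members had the same position in the GRCm38 annotation (GENCODE vM21) that gave the shared 50-base words.

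Columns were joined to groups by name, and those headed SI were taken as KO by elimination; their numbers are those of the headers. Library totals ran from 19319512 to 22766319 counts, and the biological coefficient of variation was 12.8%. Replicates were checked for duplicates by a chi-square over genes, which per gene came to 10.1 to 19.8 for pairs of the same genotype and 41.3 to 59.7 for mixed pairs, so none were merged. The test was edgeR 4.0.16 on R 4.3.3 (quasi-likelihood, TMM, and filterByExpr at its minimum count of 10), KO over WT, adjusted by Benjamini-Hochberg across the 14436 genes kept. The procedure was tested on simulated data. Ratios of related genes were tested by exact permutation. CPM values are scaled by TMM, except that marker sums and floors use library totals. Values after ± are SD for levels and SE for log2 fold changes.

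Alternatives were DESeq2 1.42.0 (size factors; Wald test), library totals, no filter, at least 50 counts in at least 5 libraries, the replicate number as a block and each library left out. A fit without KO libraries 1 and 3, and the ratios, were added after seeing the data. All library values are given for Trim30a, for members called with an absolute log2 fold change of at least 0.5 and for the 5 of highest FPKM. They are also given for Trim12c, Trim26, Trim27, Trim39 and Trim55, chosen after their values were seen, as were Upk3b, Pdgfra, Msln, Ddx58, Tab2, Tab3, Mavs, the Ube2 enzymes beyond the rule and the genes that overlap members. Other lists give up to 4 genes by p, and marker lists the 2 most abundant. Motif letters were searched on both strands; for the ISRE and NF-kB a form a base longer had been searched before the one given. The members and lists were chosen with earlier results of these data known.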

Additional observations from a re-analysis of the deposited data

Results flagged for a closer look

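Within groups of 5 libraries, 7 of the 84 groups examined (42 tested members in each genotype) held a library whose gap to the next exceeded Dixon's 95% critical value; chance flags about 1 in 20 groups. KO libraries flagged were KO 4 for Trim27, at 22.97 CPM with the others at 32.7 to 34.5 CPM, KO 1 for Trim24, at 8.11 CPM with the others at 9.03 to 9.32 CPM, and KO 2 for Trim47, at 12.64 CPM with the others at 13.9 to 14.3 CPM. WT libraries flagged were WT 5 for Trim12c, at 88.96 CPM with the others at 51.5 to 56.5 CPM, WT 5 for Trim68, at 4.279 CPM with the others at 2.46 to 2.87 CPM, WT 3 for Trim8, at 128 CPM with the others at 111 to 115 CPM, and WT 3 for Trim25, at 576.5 CPM with the others at 590 to 595 CPM. Of these genes, Trim12c and Trim25 were called in the comparison of KO with WT, and Trim25 was called in every alternative run.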

How the results depend on the processing

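Across these settings, 11 to 15 members were lower in KO (10 without KO libraries 1 and 3). Higher members numbered 4 to 5, except 7 with library totals. Library totals also called 3 ubiquitin tools higher, moved the median of all genes to 0.12 and called Trim24, Trim3 and Trim47. Over the whole table, library totals called more genes than the main fit did. Leaving out single libraries gave 12 to 15 lower and 4 to 5 higher. Trim30a, Trim30b, Trim30c, Trim34a, Trim12a, Trim25, Trim21, Trim14, Trim13, Trim56, Trim29, Trim37, Trim2 and Trim7 were called in all 17 alternatives; Trim35, Trim41, Trim12c, Trim30d and Pml were not. Trim12c had an adjusted p of 0.0627 with library totals and 0.064 unfiltered, and Trim41 of 0.0522 unfiltered. Trim65 was called with DESeq2 size factors (0.0478). Some log2 estimates near 0, none called, changed sign. With library totals these were Trim8 (0.077), Trim11 (0.084), Trim27 (0.013), Trim28 (0.062), Trim32 (0.048), Trim33 (0.107) and Trim44 (0.031). Trim33 was 0.017 unfiltered, 0.002 with the stricter filter and 0.023 without KO libraries 1 and 3. With single libraries left out, Trim8 ranged from -0.061 to 0.012, Trim11 from -0.053 to 0.015, Trim23 from -0.05 to 0.059, Trim33 from -0.024 to 0.018, Trim45 from -0.01 to 0.183 and Trim59 from -0.257 to 0.011. The cause was not tested.

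The replicate numbers do not pair the libraries, as same-numbered ones correlated at -0.09 to 0.11. With the replicate block 14 members were lower and 4 higher; Trim26 was called (-0.48, adjusted p = 0.00594) and Trim35 was not (0.0741). Depth limits the 26 untested members, where a floor of 3 counts is 0.132 to 0.155 CPM.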
